A study of Eisenia fetida with 15 samples.

Results

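Libraries of the compost earthworm *Eisenia fetida* were sorted by which assembled copy of a mitochondrial gene, ND4, took the most reads. The deposited table holds 4 abundant unigenes (contigs of a de novo transcriptome assembly) whose best protein match is subunit ND4 of NADH-ubiquinone oxidoreductase, namely contig_60, contig_149, contig_89 and contig_2661. Of 15 libraries, contig_60 led in 5, contig_149 led in 8 and contig_89 led in 2. The comparison is between the first 5 and the next 8, 13 libraries in all, across every other unigene, and the 2 libraries led by contig_89 enter no test. The libraries of each set were chosen by their measured ND4 reads, so the sets are not groups of the study, and the ND4 values are a description only.

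ND4 is a membrane subunit of complex I, the first enzyme of the respiratory chain, and belongs to the part of the complex that pumps protons. Its gene lies in the mitochondrial genome beside those of the other ND subunits, cytochrome b, the cytochrome c oxidase subunits COX1 to COX3 and ATP synthase subunits, while most other respiratory proteins come from nuclear genes. Mitochondrial messages are cut from long shared transcripts and are among the most abundant RNAs of animal tissue.

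The study exposed adult worms to lindane, an organochlorine insecticide, at a nominal 2.4 mg/kg in soil that was freshly spiked or aged 30 d, and sampled them after 7 d or 28 d beside worms taken at 0 d. RNA came from sections of whole bodies, and neither the body region nor the number of worms per library is given. The 15 libraries form 5 triplets, coded control, 0d-28d, 0d-7d, 30d-28d and 30d-7d (soil aging, then exposure). The labels' treatment field disagrees with the codes by a shift of 1 triplet, so that 0d-7d is there the unexposed 0 d group and control is 28 d in soil aged 30 d. Codes are used here only to name libraries, and neither naming was tested against the data. Both namings keep the same 3 libraries together.

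The leader cut across the triplets. Library 1 of 0d-7d, library 1 of 0d-28d, library 2 of 30d-7d and libraries 1 and 3 of 30d-28d were led by contig_60. Libraries 2 and 3 of 0d-7d, library 3 of 0d-28d, libraries 1 and 3 of 30d-7d, library 2 of 30d-28d and libraries 1 and 3 of control were led by contig_149. Library 2 of 0d-28d and library 2 of control were led by contig_89. Each of the 4 non-control triplets held libraries of both compared sets, and 0 of the 3 control libraries were led by contig_60.

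The 4 ND4 unigenes took between 0.203% and 0.848% of the reads of a library, or 26780 to 142097 reads. At that depth the 95% Wilson interval of a leading share was at most 0.525 percentage points to either side, for counting error only. In the 5 contig_60-led libraries, contig_60 held 50.7%, 51.3%, 51.6%, 53.0% and 53.5% of the ND4 reads, contig_149 between 16.5% and 17.5%, and contig_89 between 14.3% and 17.2%. These 5 libraries from 4 triplets had nearly the same ND4 profile, with all 4 unigenes present.

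The contig_149-led libraries had 1 of 2 ND4 profiles. In 0d-7d library 3, 0d-28d library 3 and control library 3, contig_149 held 73.7%, 74.0% and 70.8% of the ND4 reads, contig_89 held 3.76%, 5.46% and 4.39%, and contig_60 held 0.0918%, 0.0784% and 0.108%. In the 5 others (0d-7d library 2, 30d-7d libraries 1 and 3, 30d-28d library 2 and control library 1), contig_149 held 43.7% to 46.7%, contig_89 held 30.0% to 33.3% and contig_60 held 3.41% to 3.98%. No library stood between the profiles. This division of the 8 was seen in the data and is used below only to place values.

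The libraries led by contig_89 had a profile of their own, with 76.8% and 77.6% of ND4 reads on contig_89, 1.40% and 1.47% on contig_149 and 2.43% and 2.16% on contig_60. The unigene contig_2661 led in no library by reads and held 14.4% to 24.7% of the ND4 reads throughout. It is the shortest of the 4, at 718 bases against 925 for contig_60, 1215 for contig_149 and 1257 for contig_89. Per length, as FPKM (read fragments per unit of unigene length and of library size), contig_2661 was above contig_149 in all 5 contig_60-led and both contig_89-led libraries. Among the 8 contig_149-led libraries it was above contig_149 in 2, 30d-7d library 1 (2412 against 2181 FPKM) and control library 1 (2625 against 2350 FPKM).

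The rule set no minimum lead. The closest call among the 8 was 0d-7d library 2, where contig_149 had 43152 reads and contig_89 had 32049, a ratio of 1.35. The ratio of leader to second was 1.35 to 1.46 in the 5 libraries with both contig_149 and contig_89, 2.86 to 3.62 in the 3 with little contig_89, 2.95 to 3.25 in the contig_60-led libraries and 3.98 and 4.15 in those led by contig_89.

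**Figure D1:**
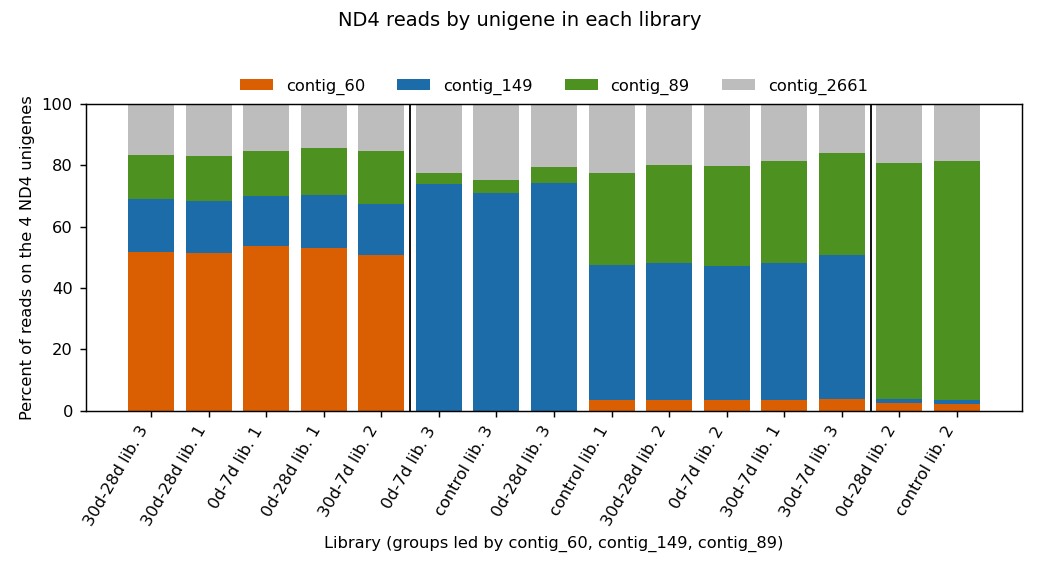
Percent of the reads on the 4 ND4 unigenes (vertical axis) held by each of them in every library, ordered by leading unigene and by the share of contig_89, with lines between libraries led by contig_60, contig_149 and contig_89. The 5 contig_60-led bars are nearly alike, at 50.7% to 53.5% contig_60, while the 8 contig_149-led bars fall into 3 with 3.76% to 5.46% contig_89 and 5 with 30.0% to 33.3%.

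As levels, contig_60 had 3730, 4383, 5159, 5178 and 7305 FPKM in the libraries it led and from 3.76 to 428 FPKM (median 298.7) in the contig_149-led libraries. The level of contig_149 was 794.5 to 1557 FPKM in the contig_60-led libraries and 2181 to 7692 FPKM (median 2639) in its own. The level of contig_89, which did not lead in either set, overlapped between them, at 596.2 to 1397 FPKM and 147.0 to 2243 FPKM. How reads that match several unigenes were handled is not given in the sources used here, and no sequence was used, so how far the 4 unigenes trade reads was not tested.

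Depth and mitochondrial content differed between the sets by less than the spread of libraries. Total counts were 17487721 ± 4231613 reads (SD, n = 5) in contig_60-led libraries and 19001829 ± 5116357 (SD, n = 8) in contig_149-led libraries (two-sided exact permutation test, p = 0.586). Unigenes with at least 1 read numbered 145521 ± 9321 and 145696 ± 9000 (exact permutation p = 0.970). Mitochondrially encoded unigenes other than the 4 took 2.09% ± 0.634 and 2.20% ± 0.911 of reads (exact permutation p = 0.834). All 3 had a Benjamini-Hochberg adjusted p of 0.970 over the 3 exact permutation tests. Across 87815 unigenes with a mean of at least 10 reads, Spearman's rho averaged 0.650 between libraries of the same set and 0.671 between libraries of different sets, and 2 of 13 libraries had their closest library in their own set.

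Outside ND4, 1 of 80658 unigenes tested changed between the sets (0.00124% of those tested; edgeR quasi-likelihood F test, Benjamini-Hochberg adjusted p under 0.05). This unigene, contig_142021, has 793 bases and no protein match. Its level in the contig_60-led libraries was 49.3 FPKM in 0d-28d library 1, 84.3 in 0d-7d library 1, 84.6 in 30d-28d library 3, 115.9 in 30d-28d library 1 and 164.9 in 30d-7d library 2. In the contig_149-led libraries the lowest level was 0, the median 0.0515 and the highest 0.207 FPKM. The sets were far apart, and the 2 libraries led by contig_89, at 23.7 and 34.9 FPKM, stood between them. On a log scale these 2 were nearer to the contig_60-led side.

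In reads, contig_142021 had 350 to 1007 in each contig_60-led library and 0 or 1 in each contig_149-led library, with 4 reads over the 8. Per total reads the contig_60-led set held 1487 times as much, with a 95% counting interval of 580.4 to 5462. The fitted log2 change was -10.17 (SE 0.703; adjusted p = 9.72e-05 by edgeR), lower in 8 of 8 contig_149-led libraries. Over 23 alternative settings its adjusted p ranged from 2.42e-34 to 0.0812. The highest came with the triplet as a covariate in edgeR, the setting in which no unigene passed, where the log2 change was -10.12.

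Before adjustment, 2438 unigenes had an edgeR p under 0.05 (3.02% of those tested), 1674 of them higher (2.08%) and 764 lower (0.947%) in contig_149-led libraries. A threshold of 0.05 would pass a larger share than 3.02% if nothing differed and p-values were uniform. Of all 80658, 54.8% had a log2 change above 0 and the median log2 change was 0.05. FPKM of the sets did not overlap for 76 unigenes (0.0942%), of which 41 were higher (0.0508%) and 35 lower (0.0434%) in contig_149-led libraries. The 13 libraries can be split into 5 and 8 in 1287 ways, and a split unrelated to ND4 can also leave unigenes without overlap. How many other splits leave was not tested, so a lack of overlap alone does not set a unigene apart. Of these 76, 50 had no protein match and 3 had an informative name: an innexin, ND2 and a retrotransposon polyprotein. Most unigenes of the whole table also had no match, since 58313 of 241846 had one. The share among those tested is not given here. The unigenes described next passed no adjusted threshold in the edgeR test and are named for their low unadjusted p or, for contig_70267 and contig_83640, after their values were seen.

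The unigene with the next number in the assembly, contig_142022 (966 bases, no protein match), had the opposite pattern. Its level was 0.358, 1.004, 0.319, 0.714 and 0.973 FPKM in the contig_60-led libraries, and 3.89, 55.1 and 112.3 FPKM (lowest, median, highest) in the contig_149-led libraries. The sets did not overlap, and the contig_89-led libraries, at 0.337 and 1.24 FPKM, lay with the contig_60-led ones. The log2 change was 6.46 (SE 0.877, edgeR adjusted p = 0.0965). Over 23 alternatives its adjusted p ran from 7.18e-16, with DESeq2, to 0.737. Its level was 3.89, 11.4 and 42.1 FPKM in the 3 contig_149-led libraries with little contig_89, and from 47.7 to 112.3 FPKM in the 5 others. No sequence was used here, so whether these neighbouring numbers are variants of 1 transcript was not tested.

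The innexin unigene contig_106854 (1442 bases) had the lowest p of the named ones. Innexins form the gap junctions of invertebrates, channels that join neighbouring cells, which in annelids couple nerve and muscle cells. Its level was 0.412, 0.635, 0.672, 0.972 and 1.25 FPKM in the contig_60-led libraries. In the contig_149-led libraries the lowest was 3.32, the median 9.76 and the highest 18.4 FPKM. Every contig_149-led library was above every contig_60-led one, and both contig_89-led libraries were low, at 0.532 and 0.612 FPKM. Mean levels were 0.788 ± 0.325 FPKM (SD, n = 5) and 9.63 ± 5.55 FPKM (SD, n = 8), and the log2 change was 3.56 (SE 0.478, edgeR adjusted p = 0.0965, range over 23 alternatives 4.01e-11 to 0.737). The 46 other tested unigenes matched to innexins had a median log2 change of -0.08, 16 of them were above 0 and 0 had an unadjusted p under 0.05, against 3.02% of all unigenes tested.

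Other patterns recurred among the lowest p values. One was that of contig_186104 (1746 bases, an uncharacterized match), with 0.038 to 0.162 FPKM in contig_60-led and 0.333 to 6.19 FPKM in contig_149-led libraries. Like the innexin, it was low in those led by contig_89, at 0.042 and 0.033 FPKM (log2 change 4.92, SE 0.676, edgeR adjusted p = 0.0965). Over 22 alternatives its adjusted p ran from 7.72e-10, with DESeq2, to 0.737. Another was that of contig_47092 (3077 bases, no protein match), with 0.063 to 0.321 FPKM in contig_60-led libraries and 7.74 to 17.7 FPKM in 7 contig_149-led libraries, but 0.238 FPKM in 0d-7d library 2. The contig_89-led libraries had 10.5 and 9.56 FPKM, so 9 libraries were high and 6 low. The levels of contig_163569 (3178 bases) and contig_202799 (775 bases), also without a match, were low in the same 6 libraries, at no more than 0.333 and 0.092 FPKM, and were at least 2.45 and 1.005 FPKM in the other 9.

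The unigene contig_79547 (494 bases, no protein match) had 0 reads in all 5 contig_60-led libraries, both contig_89-led libraries and 0d-28d library 3. The other 7 contig_149-led libraries had 5.88 to 19.9 FPKM. Over the sets this was 0 against 364 reads, at least 69.8-fold higher in the contig_149-led set when the contig_60-led set is put at a floor of 3 reads in all. No unigene had at least 10 reads in every library of 1 set and 0 reads in every library of the other.

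**Figure D2:**
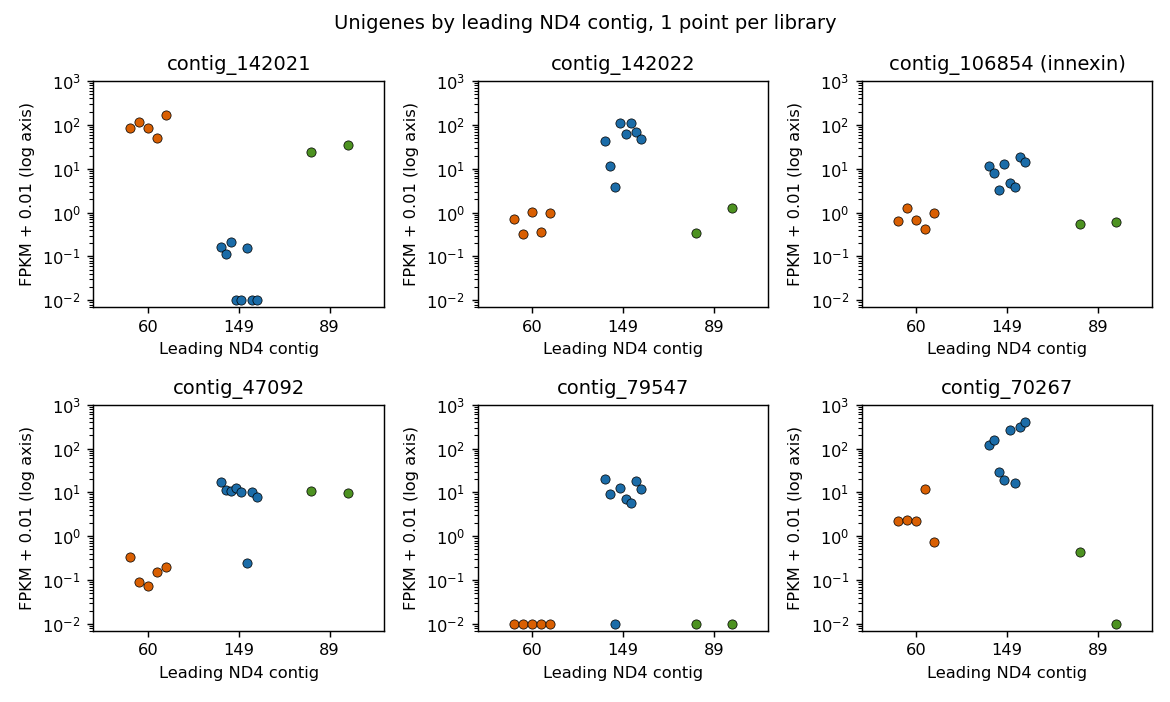
Level of 6 unigenes in each library, as FPKM plus 0.01 on a log axis, by leading ND4 unigene (orange contig_60, blue contig_149, green contig_89), 1 point per library. For contig_142021 the contig_60-led points lie at 49.3 to 164.9 FPKM and all contig_149-led points at or under 0.207, while contig_142022 and the innexin contig_106854 run the other way; contig_47092 and contig_79547 have 1 contig_149-led library, 0d-7d library 2 and 0d-28d library 3, with the low ones.

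Among abundant unigenes without a useful name, contig_70267 (500 bases, an uncharacterized match) had 12.05, 2.18, 2.39, 2.22 and 0.715 FPKM in the contig_60-led libraries and 15.98, 138.4 and 411.0 FPKM (lowest, median, highest) in the contig_149-led ones, with 0.427 and 0 FPKM in those led by contig_89. The sets came close, since the highest contig_60-led library, 0d-28d library 1, stood at 12.05 FPKM. The level of contig_83640 (1248 bases, an uncharacterized match) was 7.12 to 29.1 FPKM in the 5 libraries with both contig_149 and contig_89. It was 0.335, 0.353 and 0.467 FPKM in the 3 contig_149-led libraries with little contig_89, 0 to 0.199 FPKM in the contig_60-led libraries, and 0 and 0.314 FPKM in those led by contig_89.

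The only abundant mitochondrial unigene whose sets did not overlap was ND2 contig_198 (884 bases), another membrane subunit of complex I. Its level was 1233, 1605, 1818, 2007 and 2049 FPKM in the contig_60-led libraries and 2077, 4899 and 6618 FPKM (lowest, median, highest) in the contig_149-led ones. The sets met closely, since the lowest contig_149-led library, 0d-28d library 3, was just above the highest contig_60-led one. The contig_89-led libraries, at 1275 and 1971 FPKM, lay within the contig_60-led range. Means were 1743 ± 335 FPKM (SD, n = 5) and 4684 ± 1723 FPKM (SD, n = 8). The log2 change was 1.62 (SE 0.378), higher in 8 of 8 libraries, and did not pass the edgeR test (adjusted p = 1.0, unadjusted p = 0.000797 in the same edgeR fit). Over 22 alternatives its adjusted p ran from 0.00700, with DESeq2, to 1.0, and its log2 change from 1.34 to 1.76.

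The share of contig_198 among mitochondrial reads outside the 4 ND4 unigenes differed by ND4 profile. This share was 3.48% to 4.37% in the contig_60-led libraries and 3.46% and 4.76% in those led by contig_89. It was 7.11%, 7.54% and 8.66% in the 3 contig_149-led libraries with little contig_89, and 9.23%, 11.98%, 12.1%, 12.5% and 13.4% in the 5 with both unigenes. ND2 contig_198 and the ND4 unigenes share libraries and depth, so this is a description and has no test.

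**Figure D3:**
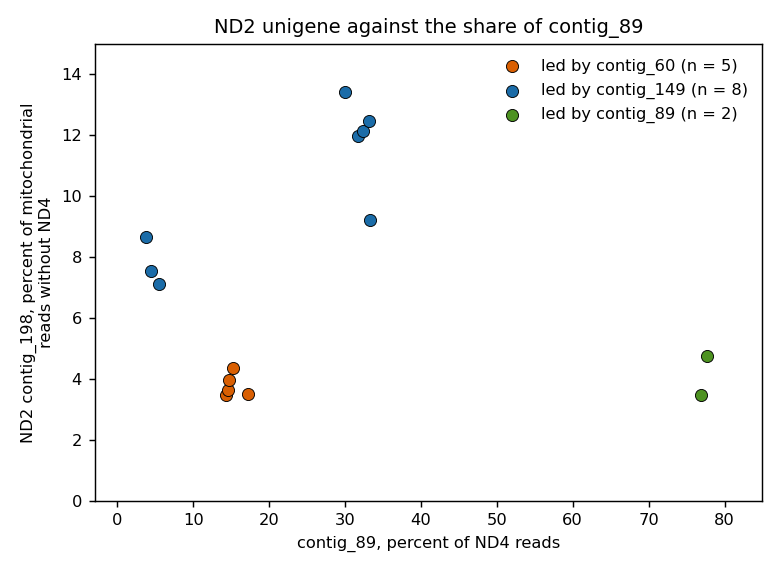
Share of ND2 contig_198 among the mitochondrial reads outside the 4 ND4 unigenes (vertical axis, percent) against the share of contig_89 among the ND4 reads (horizontal axis, percent), 1 point per library, coloured by leading ND4 unigene. The contig_60-led and contig_89-led points lie at 3.46% to 4.76% ND2, and the contig_149-led points lie at 7.11% to 13.4% in separate clusters of 3 and 5.

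No other abundant mitochondrial unigene had sets that did not overlap. Of 48 unigenes matched to mitochondrially encoded proteins outside the 4, 16 were tested and 0 were called by edgeR (adjusted p under 0.05). Of the 16, which include contig_198, 7 had a log2 change above 0. Their median was -0.01, against 0.05 for all unigenes tested. COX1 contig_286, a core subunit of the terminal oxidase, had 6571 ± 1487 FPKM (SD, n = 5) in contig_60-led and 5601 ± 2412 FPKM (SD, n = 8) in contig_149-led libraries. COX3 contig_192 had 4361 ± 792 and 4027 ± 1552 FPKM, and cytochrome b contig_187, of complex III, had 1851 ± 512 and 1625 ± 673 FPKM. ND1 contig_642 had 9858 ± 3197 and 8465 ± 4163 FPKM, ND5 contig_321 had 1275 ± 229 and 1194 ± 473 FPKM, and ND6 contig_9699 had 5553 ± 1109 and 6834 ± 3829 FPKM. Each of these ranges overlapped between the sets, and 0d-7d library 3 was the highest contig_149-led library for all 6.

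A scarce ND5 unigene, contig_294183 (1101 bases), had the lowest unadjusted p after ND2 among the 16. Its level was 1.12 to 2.81 FPKM in the contig_60-led libraries and 0.089 to 1.22 FPKM (median 0.561) in the contig_149-led ones, with 1.499 and 1.88 FPKM in those led by contig_89. The ranges overlapped narrowly, and the log2 change was -1.52 (SE 0.468, edgeR adjusted p = 1.0, range over 22 alternatives 0.144 to 1.0). On the lower side, the non-overlapping unigene with an informative name was contig_16073 (3152 bases), matched to the Pol polyprotein of retrotransposon 412. It had 0.541 to 1.67 FPKM in contig_60-led and 0.191 to 0.366 FPKM in contig_149-led libraries, and 0.082 and 1.70 FPKM in the contig_89-led libraries, on opposite sides (log2 change -1.68, SE 0.327, edgeR adjusted p = 0.813).

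**Figure D4:**
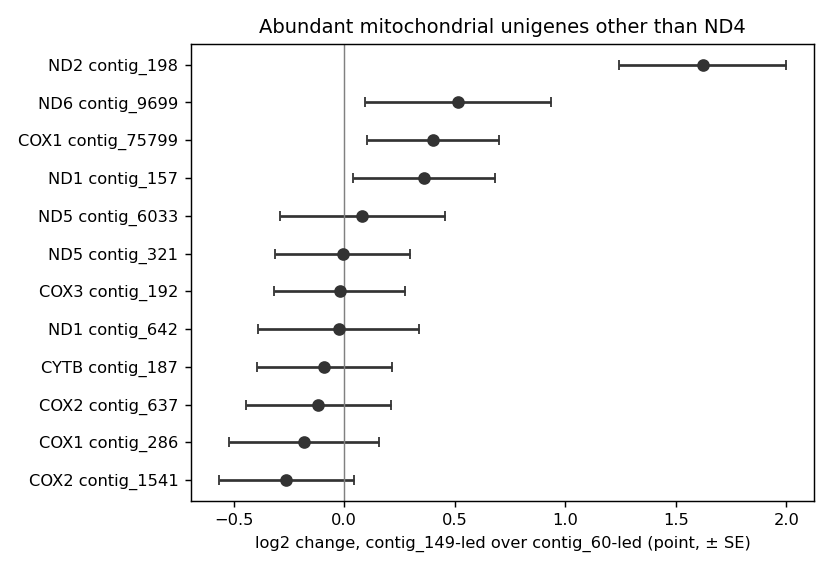
Log2 change between contig_149-led and contig_60-led libraries (horizontal axis; points, with bars of 1 SE, from edgeR) for the abundant mitochondrial unigenes other than ND4. ND2 contig_198 lies at 1.62, and the others lie close to 0, from -0.26 for COX2 contig_1541 to 0.51 for ND6 contig_9699.

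Contigs of the same gene can share reads unevenly between libraries, so reads were also summed over unigenes with the same protein match. Unigenes without a match, such as contig_142021 and contig_142022, could not enter these sums. The single unigene called above was therefore not tested in this way. Of 20604 matches tested, 0 changed (edgeR, adjusted p under 0.05), and 628 (3.05%) had an unadjusted p under 0.05. DESeq2 called 24 (0.118%) of the matches it adjusted.

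DESeq2 called 168 single unigenes (0.211% of 79646 with an adjusted p), 147 higher (0.185%) and 21 lower (0.0264%) in contig_149-led libraries. Of the 168, 101 had no protein match, 12 had an informative name and 35 had sets that did not overlap. In the whole table, 58313 of 241846 unigenes had a match. Of the 80658 tested by edgeR, 0.0942% had sets that did not overlap. Calls and overlap come from the same values, so the 35 add no support. The 168 included contig_142021, contig_142022, contig_186104, contig_47092 and the innexin contig_106854, described above. Cathepsin L2 contig_7932, a lysosomal and digestive cysteine protease, had 0.250 to 9.03 FPKM in contig_60-led and 4.07 to 449.7 FPKM (median 94.0) in contig_149-led libraries, with the highest in control library 1. A venom cathepsin match, contig_11322, had 0.395 to 0.821 FPKM and 0 to 73.9 FPKM (median 15.7), with 1.03 and 28.0 FPKM in the contig_89-led libraries. Both ranges overlapped between the sets. The cathepsin list as a whole had 20 of 42 above 0 and a median log2 change of -0.02. Its 2 most abundant members were lower in contig_149-led libraries. They were cathepsin L3 contig_3409 (483 ± 178 and 299 ± 150 FPKM, log2 change -0.74) and contig_1053 (445 ± 172 and 299 ± 99.8 FPKM, log2 change -0.52). Neither was called, and their ranges overlapped. A phosphodiesterase match, contig_27726, was on the lower side, with 1.33 to 28.0 FPKM in contig_60-led and 0 to 5.06 FPKM (median 0.388) in contig_149-led libraries. By edgeR none of contig_7932, contig_11322 and contig_27726 was called, with unadjusted edgeR p of 0.00290, 0.000737 and 0.000962.

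Gene lists matched on protein names held 0 called unigenes, so each is given by its count and median beside all unigenes tested (median 0.05, 54.8% above 0). In bulk RNA of body sections, fewer cells of a type and less RNA per cell cannot be told apart. Digestive enzymes had the lowest median, -1.02, with 36 of 118 above 0. Fibrinolytic protease 1 (contig_69), a secreted gut protease, had 5041 ± 7090 FPKM (SD, n = 5) in contig_60-led and 1488 ± 2655 FPKM (SD, n = 8) in contig_149-led libraries. Its range was 1.54 to 15475 FPKM in the former and 0.979 to 7303 FPKM in the latter. Lumbrokinase-7T1 (contig_150) ran from 2.59 to 17735 FPKM and from 1.12 to 15362 FPKM. The whole list held 0.105% to 6.67% of reads in contig_60-led, 0.0812% to 3.27% in contig_149-led and 2.63% and 2.91% in contig_89-led libraries, so each set held libraries with and without much of it. The list median was 0.04 over the 44 members left when at least 10 reads were asked in every library of 1 set. Over all 118 members it was -0.48 with the triplet as a covariate. Without 1 library at a time it ran from -1.70 (without 30d-7d library 3) to -0.20 (without 0d-28d library 1). The part of digestive enzymes in the comparison was not tested.

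Lists on the upper side were DNA replication proteins and histones (median 0.34, 36 of 45 above 0), germ cell and sperm proteins (0.29, 30 of 41 above 0) and muscle contractile proteins (0.21, 46 of 78 above 0). The first 2 rested on 0d-28d library 3, since their medians without it were 0.03 and -0.03. Of the germ cell and sperm list, 10 of 41 (24.4%) had an unadjusted edgeR p under 0.05, all higher, against 3.02% of all unigenes tested in either direction and 2.08% in that one. Without 0d-28d library 3 this count was 0 of 40, and without any other single library it was 1 to 12. The median of that list was also 0.63 on leaving out 30d-28d library 3 and 0.44 on leaving out 0d-28d library 1. PIWI1 (First_Contig345), which guards the germ line against mobile elements, had 1.01 to 5.79 FPKM in contig_60-led and 0.497 to 288.5 FPKM in contig_149-led libraries, with the highest value in that library. Germ cell and sperm proteins took 0.0239% to 0.0676% of reads in contig_60-led and 0.0202% to 0.452% in contig_149-led libraries. The muscle list had a median log2 change of 0.03 with limma on log2(FPKM + 1). Its median share of reads was 0.834% in contig_60-led and 0.680% in contig_149-led libraries, the other direction. Tropomyosin (contig_2234), which covers the myosin sites of actin filaments, had 399 ± 55.3 FPKM (SD, n = 5) and 552 ± 554 FPKM (SD, n = 8). Its medians ran the other way, at 433 and 282 FPKM, with 1625 FPKM in 0d-7d library 3 and 1224 FPKM in 30d-28d library 2.

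The lists closest to lindane handling and stress had medians near that of all unigenes. Phase I detoxification enzymes had 22 of 43 above 0 (median 0.00), phase II conjugation enzymes 17 of 44 (-0.10), antioxidant enzymes 21 of 43 (-0.04), heat shock proteins 13 of 26 (0.01) and neurotransmission proteins 29 of 61 (-0.06). NADPH-cytochrome P450 reductase (contig_4776), which feeds electrons to P450 enzymes, had 32.6 ± 4.13 FPKM (SD, n = 5) and 29.4 ± 10.3 FPKM (SD, n = 8). The chaperone HSP70 (contig_645, heat shock protein 70) had 451 ± 113 and 419 ± 119 FPKM. Glutathione peroxidase (contig_1215), which reduces peroxides, had 1348 ± 317 and 1162 ± 684 FPKM.

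Nuclear encoded respiratory proteins, the partners of the mitochondrial subunits, had 13 of 18 above 0 (median 0.17). ATP synthase subunit alpha (contig_2934) had 179 ± 42.5 FPKM (SD, n = 5) in contig_60-led and 180 ± 36.6 FPKM (SD, n = 8) in contig_149-led libraries, and the iron-sulfur subunit of succinate dehydrogenase (contig_8875) had 239 ± 41.1 and 260 ± 56.4 FPKM. Cytosolic ribosomal proteins had 14 of 39 above 0 (-0.04), with ribosomal protein L15 (contig_2482) at 766 ± 47.2 and 721 ± 200 FPKM. Cathepsins had 20 of 42 above 0 (-0.02), coelomocyte and immune proteins 23 of 65 (-0.17), collagen and extracellular matrix proteins 19 of 36 (0.06), and mobile elements 199 of 360 (0.05).

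Globins, the extracellular oxygen carriers of worm blood, had 15 of 21 above 0 and a median log2 change of 0.08, which was -0.75 with limma on log2(FPKM + 1). Hemoglobin chain d1 (contig_842) had 1459 to 5013 FPKM in contig_60-led and 5.24 to 8014 FPKM in contig_149-led libraries. Lysenin-related protein 2 (contig_6068), a pore-forming protein of coelomocytes, had 640 ± 383 and 455 ± 252 FPKM. In a search of protein names, 0 unigenes carried a name from the list for gregarines, parasites common in earthworms, and 1 carried a name from the bacterial list, at 0.326 ± 0.0904 and 0.418 ± 0.394 FPKM. The search used protein names and not organisms, and most unigenes have no match. It therefore cannot show whether such organisms were absent.

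**Figure D5:**
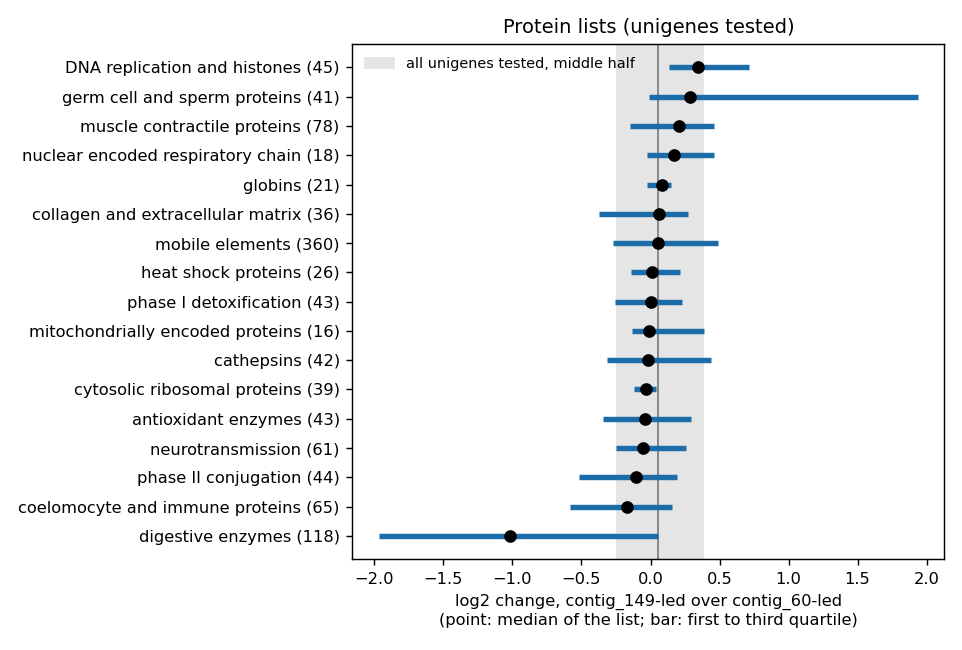
Median (point) and interquartile range (bar) of the log2 change between contig_149-led and contig_60-led libraries for each list, with the number of unigenes tested in brackets, the median of all unigenes tested as a line and their quartiles as a grey band. Most list medians lie within the band, and digestive enzymes lie lowest at -1.02.

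The libraries led by contig_89 took part in no choice of the non-overlapping unigenes. Of the 41 higher in contig_149-led libraries, both contig_89-led libraries lay on the contig_60-led side for 14, on the contig_149-led side for 9 and in neither way for 18. Of the 35 lower, the counts were 5, 11 and 19. The contig_89-led libraries thus resembled neither set throughout.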

How the data were processed

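The authors deposited whole-number read counts and FPKM values for 241846 unigenes in 15 libraries, per the file headers. Assembler, aligner, counting program and strand setting: each is not given in the sources used here. Gene names are those of the table's protein matches, which 58313 unigenes have. Totals ran from 13182058 to 28022746 reads per library.

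Each library's leader was the ND4 unigene with most reads. The 4 ND4 unigenes were left out of the tests and library sizes. Deposited counts were tested with edgeR 4.0.16 in R 4.3.3 (filterByExpr with minimum count 10 and minimum total 15, TMM scaling, quasi-likelihood F test, two-sided, Benjamini-Hochberg, adjusted p under 0.05) over 13 libraries and 80658 unigenes, with 11 residual degrees of freedom and a common biological coefficient of variation of 0.834. Those unigenes took 81.0% of reads in 0d-28d library 3 and at least 89.9% elsewhere. A standard error is the change divided by the root of the F statistic. Alternatives used DESeq2 1.42.0, limma 3.58.1 on log2(FPKM + 1), other filters and scalings, and left-out libraries. The procedure was also tested on simulated data, but the outcome is not given here and is not used as support.

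Named unigenes were to be the mitochondrial ones, those past the threshold whose sets do not overlap, and called members of lists or protein matches. Only contig_142021 passed, so list members are the 2 most abundant of a list and others were chosen by lowest unadjusted p or after their values were seen. The members and lists were chosen with earlier results of these data known. Whether each library came from its own worm is not stated, and p-values cover only differences among the libraries sequenced, which may be technical. The largest Spearman's rho between any pair of libraries was 0.773.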

Additional observations from a re-analysis of the deposited data

Results flagged for a closer look

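Groups of values were formed in each set for the ND4 unigenes, 4 library measures and further tested unigenes. The latter were those named, most abundant of a list or informative DESeq2 calls. Of 168 groups, 26 had 1 library far from the others by Dixon's test. Chance gives this in about 1 in 20 groups of normally distributed values. These values need not be normal, and in all 26 the far library was the highest, so that rate may not apply. Mitochondrial unigenes of the same library are not independent, and 9 of the 26 were mitochondrial or ND4 levels in 0d-7d library 3, the highest of the 8 contig_149-led libraries. There contig_149 stood at 7692 FPKM, COX1 contig_286 at 11047, COX2 contig_1541 at 355.9, COX1 contig_75799 at 5459, cytochrome b contig_187 at 3128, COX3 contig_192 at 7675, ND1 contig_642 at 18575, ND5 contig_6033 at 1892 and ND6 contig_9699 at 15835 FPKM. The same library had First_Contig2800 at 2.79 FPKM and the bacterial name match contig_275880 at 1.35 FPKM.

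Among the other contig_149-led libraries, 0d-28d library 3 had the COX1 match contig_243494 at 1.47 FPKM, and control library 1 had the ND5 match contig_130879 at 41.5 FPKM, far above the rest. Further single high libraries were 0d-28d library 3 for PIWI1 (First_Contig345, 288.5 FPKM), histone H3.3 (contig_606, 102.4 FPKM) and the phosphodiesterase match contig_27726 (5.06 FPKM), and 30d-7d library 3 for lumbrokinase-7T1 (contig_150, 15362 FPKM). Control library 1 was far above the rest for cathepsin L2 contig_7932 (449.7 FPKM) and the EEP-2 match contig_57896 (45.2 FPKM).

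Among the 5 contig_60-led libraries, 30d-7d library 2 had contig_192 at 5714 FPKM, and 0d-28d library 1 had contig_70267 at 12.05 FPKM. The ES20 match contig_162296 was at 1.05 FPKM in 0d-7d library 1, and the transposon match contig_131902 was at 2.47 FPKM in 30d-7d library 2. Of 3 unigenes listed at 0 in the 4 others, contig_162248 was at 0.119 FPKM in 0d-28d library 1, and contig_202799 and contig_5695 were at 0.092 and 0.0400 FPKM in 30d-28d library 3, each from 1 read.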

How the results depend on the processing

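The single call, contig_142021, was made in every setting run except the triplet as a covariate, which gave 0 calls (adjusted p 0.0812, log2 change -10.12 against -10.17). The edgeR count was 5 with at least 10 reads in every library of 1 set, and DESeq2 gave 168. That 10-read filter uses the compared sets, so a unigene can enter through the set where it is high. Of those called under it, contig_142022 and contig_47092 entered only through the contig_149-led set. The rise to 5 is therefore no added support. Leaving out 1 library gave 1 to 5 calls, with 5 after removal of 0d-28d library 3 or 0d-7d library 2 and 2 after removal of control library 3 or 30d-28d library 2. For summed protein matches DESeq2 gave 24 calls, and leaving out 1 library gave 0 to 1, the 1 without 0d-28d library 3. Unigenes present in 1 set and at 0 in the other numbered 1 when 1 read was allowed and 0 to 2 with 1 library left out.

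Same-numbered libraries showed little sign of pairing, as 6 of 30 such pairs had deviations correlated over 0.1 (mean -0.07, and 0.03 for other pairs). This measure cannot exclude pairing or a batch shared by number. The contig_149-led libraries with little contig_89 were all library 3, and both contig_89-led libraries were library 2. The contig_60-led libraries had numbers 1, 2 and 3. Whether the numbers mark a batch was not tested. With the replicate block 1 unigene was called, again contig_142021 (adjusted p 0.000703).

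Differences between sets changed sign for unigenes detected (-3190 to 2966 with 1 library left out, 175 with all) and for the mitochondrial share (-0.156 to 0.342 percentage points). Some log2 changes also changed sign. That of contig_408735, a scarce COX1 match, was -0.80 with all libraries, 3.21 with the triplet as a covariate and -1.28 to 0.71 with 1 library left out. That of contig_6033 was -0.27 with the triplet, -0.22 with limma and -0.28 to 0.18 with 1 library left out. By leader in FPKM and without the control libraries (the latter chosen after seeing the data), contig_192 had 0.023 and 0.046, contig_642 had 0.019 and 0.0099, and contig_321 had 0.013 and 0.042. The last had 0.013 under the 10-read filter and 0.00092 under the replicate block. With 1 library left out the ranges were -0.23 to 0.12 for contig_192, -0.36 to 0.16 for contig_642, -0.20 to 0.12 for contig_321, -0.31 to 0.071 for contig_187, -0.33 to 0.11 for contig_637 and -0.16 to 0.94 for contig_243494. The cause was not tested. Over all settings and named unigenes, 663 log2 changes kept sign and side of the threshold, and 35, in 8 unigenes, changed sign. Of the rest, 30 newly passed the threshold and 1 no longer did. Leaving out libraries with a leader under 80% of ND4 reads was not run, since no library reached it, nor limma on summed matches. Low-count unigenes are limited by depth, at a floor of 3 reads.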
